A study of Mus musculus with 9 samples.

Results

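The genes that carry the insulin signal from its receptor to the FOXO transcription factors were examined in the liver of mice fed a high-fat diet (HFD) stored in different ways. They were picked by symbol and comprise 10 of the 33211 genes in the table: Insr, Irs1, Irs2, Pik3r1, Akt1, Akt2, Foxo1, Foxo3, Igfbp1 and Igfbp2. RNA-seq had been made from 9 livers of male mice of the C57BL/6 strain (C57BL6/J in the study's methods), which were 8 weeks old at the start and ate the diet for 7 weeks. The opened diet was kept either in a freezer at -20 °C (HFDfre, n = 5) or in a fridge at 4 °C (HFDfri, n = 4), and both groups received the same purchased HFD, so no group on a low-fat diet was analysed here. The study set the diets side by side to learn what their storage does in the animal. As the labels describe them, each library is a separate liver sample, and whether the mice were fasted when the livers were taken is not given in the sources used here.

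In hepatocytes, insulin binds the receptor tyrosine kinase encoded by Insr, which phosphorylates the docking proteins IRS1 and IRS2. These recruit phosphoinositide 3-kinase, whose regulatory subunit p85α is encoded by Pik3r1, and the lipid it makes activates the kinases AKT1 and AKT2. AKT phosphorylates FOXO1 and FOXO3, which then leave the nucleus, so that transcription of FOXO-dependent genes such as Igfbp1 and Irs2 declines after a meal. IGFBP1 and IGFBP2 are secreted proteins that bind insulin-like growth factors in blood.

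All 10 genes were tested, and 0 passed an adjusted p of 0.05 with edgeR's quasi-likelihood test after Benjamini-Hochberg adjustment, against 1.05% of all tested genes (0.499% higher and 0.556% lower in HFDfri). Of the 10, 4 had an unadjusted p under 0.05, namely Igfbp1, Irs2, Akt2 and Akt1, and each of them had the higher mean in HFDfri. Of all 14220 tested genes, 21.2% had such a p, 11.4% with a higher and 9.79% with a lower mean in HFDfri. DESeq2 called 2 of the 10, Akt2 and Igfbp1, against 7.26% of all tested genes. The largest differences were those of Igfbp1, whose level in CPM (the share of a library's counts after TMM scaling) was 12.5 ± 5.92 for 5 HFDfre and 32.03 ± 16.2 for 4 HFDfri livers (SD), and of Irs2, with 0.940 ± 0.514 and 2.04 ± 0.904 CPM. For Insr, Irs1, Pik3r1, Foxo1, Foxo3 and Igfbp2 the difference was within the spread between livers.

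The promoters of the members were searched because Igfbp1 and Irs2 are textbook FOXO targets and had the largest differences. The 8 letters CAAAACAA, the core of the insulin response sequence known from the IGFBP1 promoter, were looked for on both strands in the 250 bases before each annotated start in the RefSeq promoter table of GRCm38.p6. It held 15 windows for 9 of the 10 members and none for Insr. Each line gives the strand of the gene read 5′ to 3′, with the matched motif in capitals. All 250 bases searched are shown for Igfbp1, and a stretch around the match for the others.

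Igfbp1 (chr11:7197537-7197786, plus strand): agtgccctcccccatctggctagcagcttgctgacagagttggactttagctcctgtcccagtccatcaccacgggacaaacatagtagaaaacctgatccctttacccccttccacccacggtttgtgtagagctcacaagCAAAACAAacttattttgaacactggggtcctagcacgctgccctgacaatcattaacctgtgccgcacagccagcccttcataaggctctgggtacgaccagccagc
Irs1 (chr1:82291440-82291498, minus strand): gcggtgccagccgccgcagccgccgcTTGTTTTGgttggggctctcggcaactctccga
Irs2 (chr8:11008934-11008993, minus strand): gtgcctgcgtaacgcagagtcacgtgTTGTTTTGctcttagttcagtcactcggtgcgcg
Akt1 (chr12:112675013-112675071, minus strand): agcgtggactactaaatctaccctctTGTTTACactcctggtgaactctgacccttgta

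In Igfbp1 the motif ran from 108 to 101 bases before the start and stood as written. The reverse complement, TTGTTTTG, lay from 38 to 31 bases before the start of Irs2 and from 33 to 26 bases before that of Irs1. For Irs2 the RefSeq start lies upstream of the GENCODE one at 11008458, so the match is farther from the latter. The second motif searched, GTAAACA, which FOXO and other forkhead proteins bind, was found in Akt1 alone among the 9 members searched, as its reverse complement TGTTTAC from 161 to 155 bases before the start. Of 32851 mouse promoter windows of 250 bases, 2.213% held CAAAACAA and 3.166% held GTAAACA on either strand. Of the 15 windows of the members, 3 held CAAAACAA and 1 held GTAAACA. Since CAAAACAA is known from the IGFBP1 promoter, its match in Igfbp1 was not an independent find. The 15 windows belong to only 9 genes, and whether members hold more matches than other genes was not tested. A match is a description of the letters and not of a bound site. Of the genes with CAAAACAA, Igfbp1 and Irs2 had higher means in HFDfri and Irs1 a lower one.

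**Figure D1:**
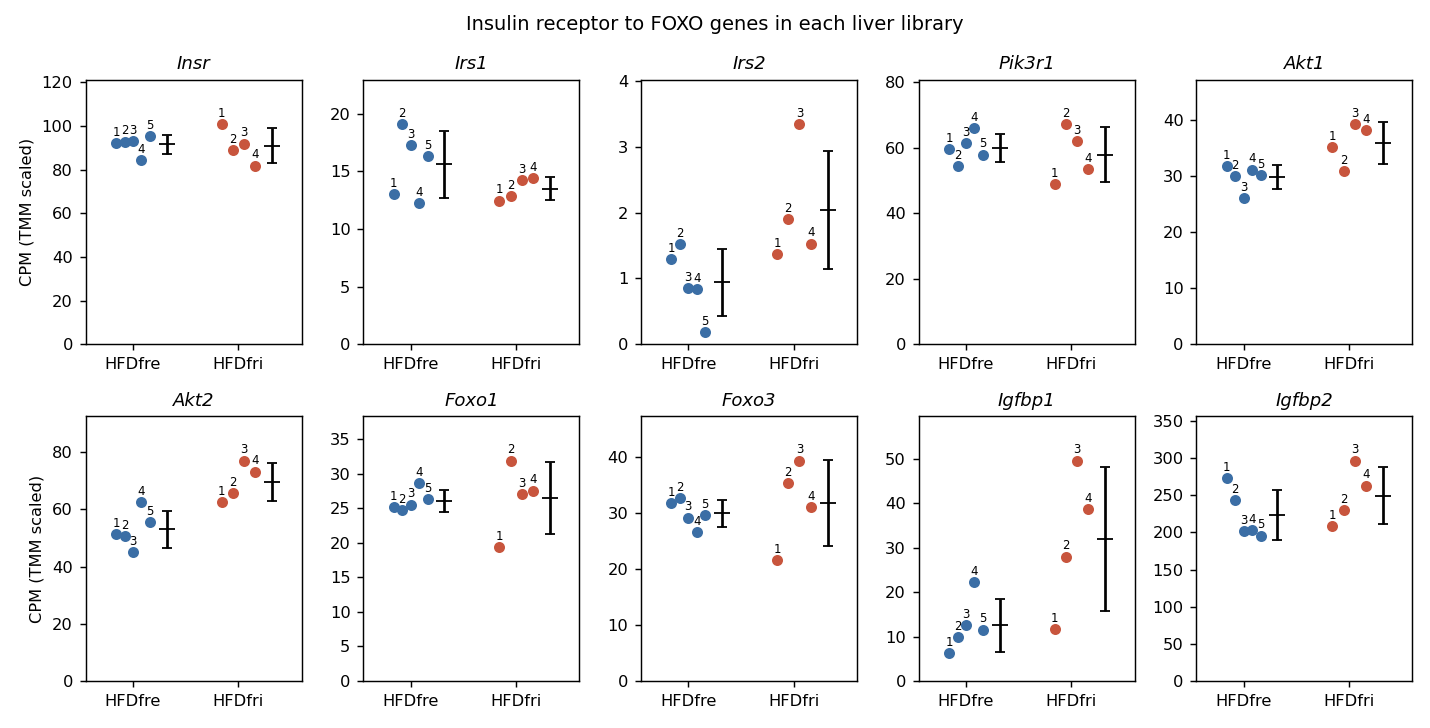
TMM-scaled CPM of the 10 genes in each liver library, 1 panel per gene with its own linear axis from 0. Points are single libraries, numbered by replicate, with HFDfre in blue and HFDfri in red, and bars give the mean ± SD (n = 5 and n = 4). Igfbp1 is at 27.99 CPM or more in HFDfri 2, 3 and 4 and at 22.2 CPM or less in every other library, whereas the groups lie on each other for Insr.

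The receptor gene Insr (ENSMUSG00000005534, chromosome 8, 3122061 to 3279617, minus strand, GRCm38) was at 92.1, 92.9, 93.0, 84.2 and 95.5 CPM in HFDfre 1 to 5 and at 101, 89.0, 91.9 and 81.9 CPM in HFDfri 1 to 4. Both the highest and the lowest library were in HFDfri, and the groups overlapped fully. It was the steadiest of the 10 genes, and its highest library was 1.235 times its lowest. Between the diets it differed by a log2 fold change of -0.01 ± 0.08 (HFDfri minus HFDfre, SE, adjusted p = 0.965, edgeR). Igf1r, the gene of the related IGF-1 receptor that adult hepatocytes hardly express, had between 0 and 25 counts per library. The 0 in HFDfre 1 allows up to 0.0578 CPM, which is the level of 3 counts there.

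Of the docking proteins, Irs1 (ENSMUSG00000055980, chromosome 1, 82233101 to 82291416, minus strand) had 13.0, 19.1, 17.3, 12.2 and 16.3 CPM in HFDfre 1 to 5. In HFDfri 1 to 4 it had 12.5, 12.9, 14.2 and 14.4 CPM. The HFDfri livers lay close together, with a coefficient of variation of 7.21% against 18.7% in HFDfre, and all 4 fell inside the range of HFDfre. Its log2 fold change was -0.21 ± 0.14 (SE, adjusted p = 0.416, edgeR).

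Irs2 (ENSMUSG00000038894, chromosome 8, 10984681 to 11008458, minus strand) is the docking protein whose transcription changes with feeding. Its counts were 67, 98, 56, 60 and 13 in HFDfre 1 to 5 and 77, 138, 247 and 93 in HFDfri 1 to 4. Scaled, these were 1.29, 1.53, 0.857, 0.843 and 0.182 CPM in HFDfre and 1.37, 1.91, 3.35 and 1.53 CPM in HFDfri. HFDfri 3 was the highest library and HFDfre 5 by far the lowest, the range between them being 18.4-fold, and the groups overlapped only through HFDfri 1, which lay below HFDfre 2. The log2 fold change was 1.13 ± 0.47 (SE, unadjusted p = 0.0327, adjusted p = 0.198, edgeR), a 2.19-fold difference that did not pass. It was 0.78 without HFDfri 3 and 0.86 without HFDfre 5 (adjusted p = 0.514 and 0.224, edgeR).

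Because Irs1 and Irs2 were not measured at the same level, their ratio within each library was also taken, which does not depend on scaling between libraries. The log2 ratio of Irs2 to Irs1 counts was -3.32, -3.64, -4.32, -3.85 and -6.44 in HFDfre 1 to 5 and -3.18, -2.75, -2.08 and -3.23 in HFDfri 1 to 4. Every HFDfri liver was thus above every HFDfre liver, by a narrow margin between HFDfri 4 and HFDfre 1. The means of -4.31 ± 1.24 and -2.81 ± 0.53 (SD) differed by 1.5, with a two-sided exact permutation p of 0.0238, which became 0.119 over the 5 ratios tested. Of all tested genes, 7.69% had groups that did not overlap in CPM. This share is of single genes, and the share among ratios of genes was not determined.

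Pik3r1 (ENSMUSG00000041417, chromosome 13, 101680563 to 101768217, minus strand), the regulatory subunit of the kinase, had 59.8 ± 4.25 CPM in HFDfre and 57.9 ± 8.27 CPM in HFDfri (SD, n = 5 and n = 4). Its libraries ran from 54.4 to 65.9 CPM in HFDfre and from 48.9 to 67.2 CPM in HFDfri, so that HFDfri held the whole range of HFDfre. Its log2 fold change was -0.05 ± 0.10 (SE, adjusted p = 0.841, edgeR).

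The gene with the smallest unadjusted p of the 10 was Akt2 (ENSMUSG00000004056, chromosome 7, 27591552 to 27640826, plus strand), the main AKT form of the insulin response in liver. It was at 51.4, 50.8, 45.1, 62.5 and 55.5 CPM in HFDfre 1 to 5 and at 62.4, 65.6, 77.1 and 73.2 CPM in HFDfri 1 to 4. HFDfri 2, 3 and 4 were above all HFDfre livers, and the groups touched only at HFDfre 4 and HFDfri 1. The log2 fold change of 0.39 ± 0.11 (SE) is a 1.31-fold difference, with an unadjusted p of 0.00314 and an adjusted p of 0.0871 (edgeR), and Akt2 ranked 512 of 14220 genes. DESeq2 gave an adjusted p of 0.0255 for the same difference, and edgeR gave 0.0374 without HFDfri 1, in a fit that called 7.65% of all genes. With edgeR the adjusted p was 0.239 without HFDfri 3 and 0.197 without HFDfre 3. The log2 fold change was 0.34 and 0.33 in these fits, which called only 10 of 14419 and 6 of 14051 genes.

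Akt1 (ENSMUSG00000001729, chromosome 12, 112653821 to 112674884, minus strand), the form known more for growth, had 31.7, 29.9, 26.1, 31.1 and 30.2 CPM in HFDfre 1 to 5 and 35.1, 30.9, 39.3 and 38.1 CPM in HFDfri 1 to 4. HFDfri 2 lay within HFDfre and the other 3 HFDfri livers above it. The log2 fold change was 0.27 ± 0.10 (SE, unadjusted p = 0.0170, adjusted p = 0.153, edgeR), and it stayed between 0.22 and 0.33 when any 1 library was left out. The Akt1 to Akt2 log2 ratio was -0.83 ± 0.12 in HFDfre and -0.96 ± 0.11 in HFDfri (SD, n = 5 and n = 4, exact permutation p = 0.119, adjusted 0.198), so no shift between the forms was detectable with these livers.

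The transcription factor genes differed little in their means between the diets. Foxo1 (ENSMUSG00000044167, chromosome 3, 52268336 to 52353221, plus strand) was at 25.2, 24.7, 25.5, 28.7 and 26.4 CPM in HFDfre 1 to 5 and at 19.4, 31.9, 27.0 and 27.6 CPM in HFDfri 1 to 4. Foxo3 (ENSMUSG00000048756, chromosome 10, 42181841 to 42276755, minus strand) was at 31.7, 32.6, 29.2, 26.6 and 29.5 CPM in HFDfre and at 21.5, 35.4, 39.3 and 31.1 CPM in HFDfri. For both genes HFDfri 1 was the lowest of all 9 libraries and the highest was another HFDfri liver, so HFDfre lay inside HFDfri. The log2 fold changes were 0.02 ± 0.13 for Foxo1 (SE, adjusted p = 0.944, edgeR) and 0.09 ± 0.15 for Foxo3 (SE, adjusted p = 0.774, edgeR). The coefficient of variation was 19.7% and 24.1% in HFDfri for Foxo1 and Foxo3, against 5.95% and 7.95% in HFDfre. Whether the spread differed between the groups was not tested. The Foxo1 to Foxo3 log2 ratio was -0.20 ± 0.20 in HFDfre and -0.25 ± 0.19 in HFDfri (SD, n = 5 and n = 4, exact permutation p = 0.683, adjusted 0.849).

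Igfbp1 (ENSMUSG00000020429, chromosome 11, 7197782 to 7202546, plus strand), a FOXO target that insulin represses, was at 6.26, 9.95, 12.5, 22.2 and 11.6 CPM in HFDfre 1 to 5 and at 11.7, 27.99, 49.7 and 38.7 CPM in HFDfri 1 to 4. HFDfri 2, 3 and 4 were above every HFDfre liver, while HFDfri 1 lay in the middle of HFDfre, and the whole range was 7.94-fold. The log2 fold change was 1.36 ± 0.39 (SE, unadjusted p = 0.00440, adjusted p = 0.0965, edgeR), a 2.56-fold difference, and Igfbp1 ranked 648 of 14220 genes. Without HFDfri 1 the log2 fold change was 1.62 ± 0.31 (SE) and passed (adjusted p = 0.0211, edgeR), in a fit that called 7.65% of all genes, as it did without both HFDfre 1 and HFDfri 1 (1.46, adjusted p = 0.0376), where 1.85% of all genes were called. DESeq2 with all libraries gave an adjusted p of 0.0495. Without HFDfri 3 the log2 fold change was 1.06 (adjusted p = 0.282, edgeR), in a fit that called only 10 of 14419 genes.

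Igfbp2 (ENSMUSG00000039323, chromosome 1, 72824503 to 72852474, plus strand), whose product is a further binding protein made in liver, was at 273, 244, 202, 203 and 196 CPM in HFDfre 1 to 5 and at 209, 230, 297 and 263 CPM in HFDfri 1 to 4. The highest library was HFDfri 3 and the next HFDfre 1, so the groups overlapped. A log2 fold change of 0.16 ± 0.13 was fitted (SE, adjusted p = 0.521, edgeR). The Igfbp1 to Igfbp2 log2 ratio was -4.27 ± 0.83 in HFDfre and -3.13 ± 0.71 in HFDfri (SD, n = 5 and n = 4), a difference of 1.13 with an exact permutation p of 0.0635 (adjusted 0.159).

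**Figure D2:**
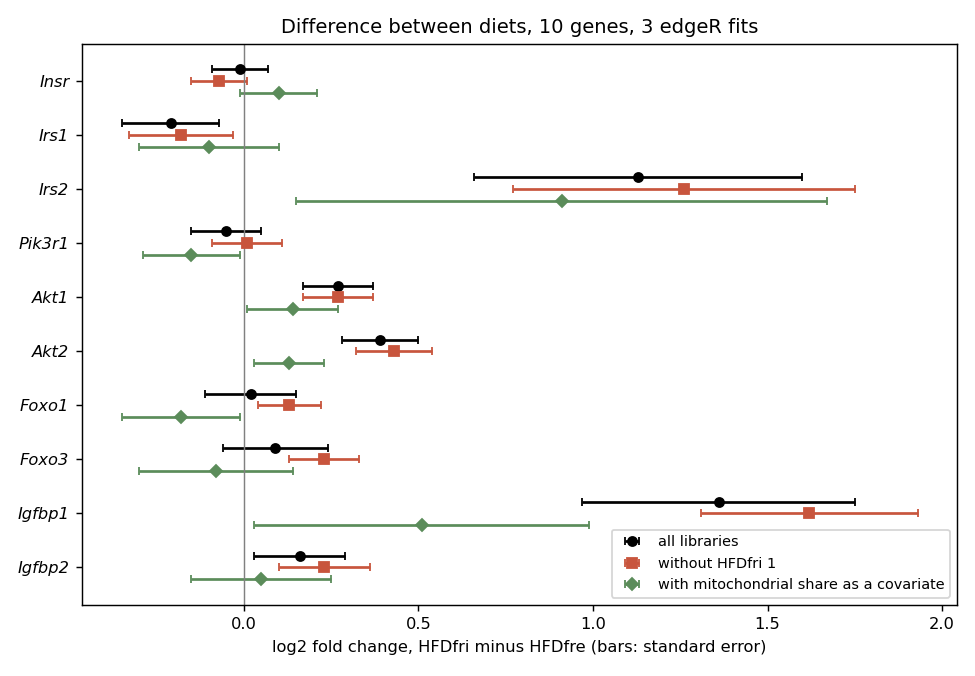
Log2 fold change (HFDfri minus HFDfre, horizontal axis) of the 10 genes in edgeR fits with all libraries (black), without HFDfri 1 (red) and with the mitochondrial share as a covariate (green). Bars are standard errors. Igfbp1 is at 1.36, 1.62 and 0.51 in the 3 fits and Akt2 at 0.39, 0.43 and 0.13, while Insr stays between -0.07 and 0.10.

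Across all 10 genes the median log2 fold change was 0.13, against -0.01 over all tested genes, with 7 genes higher and 3 lower. In 0 of the 10 did the groups stand apart without overlap, against 7.69% of all tested genes (4.02% with HFDfri above and 3.66% with it below). Over 22 other fits, 2 passed the threshold for Akt2 and 3 for Igfbp1, and 0 passed for Irs2, Akt1 or any other member. In these fits the log2 fold change ran from 0.13 to 0.46 for Akt2 and from 0.51 to 1.67 for Igfbp1. That of Irs2 ran from 0.78 to 1.73 and that of Akt1 from 0.14 to 0.34, so the sign of these 4 genes held in all of them.

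Levels of different genes were compared per length, as CPM per kilobase of merged exons. Igfbp2 stood highest with a mean of 127 (range 106 to 161 over the 9 libraries), and Igfbp1 followed with 13.9 (4.10 to 32.6). The kinases and the receptor came next, Akt2 with 8.47, Akt1 with 7.93, Insr with 6.64 and Pik3r1 with 5.85 CPM per kilobase. Foxo3 had 4.06, Foxo1 3.03 and Irs1 1.603, and Irs2 stood last with 0.226 CPM per kilobase (0.0288 to 0.530). From Igfbp1 down to Pik3r1 the ranges overlapped throughout, with Akt2 at 6.32 to 10.8, Akt1 at 6.37 to 9.58, Insr at 5.96 to 7.35 and Pik3r1 at 4.85 to 6.67, so the order of these 5 genes was not clear of the spread. Pik3r1 and Igfbp1 overlapped Foxo3 (2.84 to 5.197), and Foxo3 overlapped Foxo1 (2.24 to 3.69). The gaps from Igfbp2 to the rest and from Irs1 (lowest library 1.34) to Irs2 were wider than the spread between livers. The order was the same with the length of the longest transcript and with scaling by library totals.

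**Figure D3:**
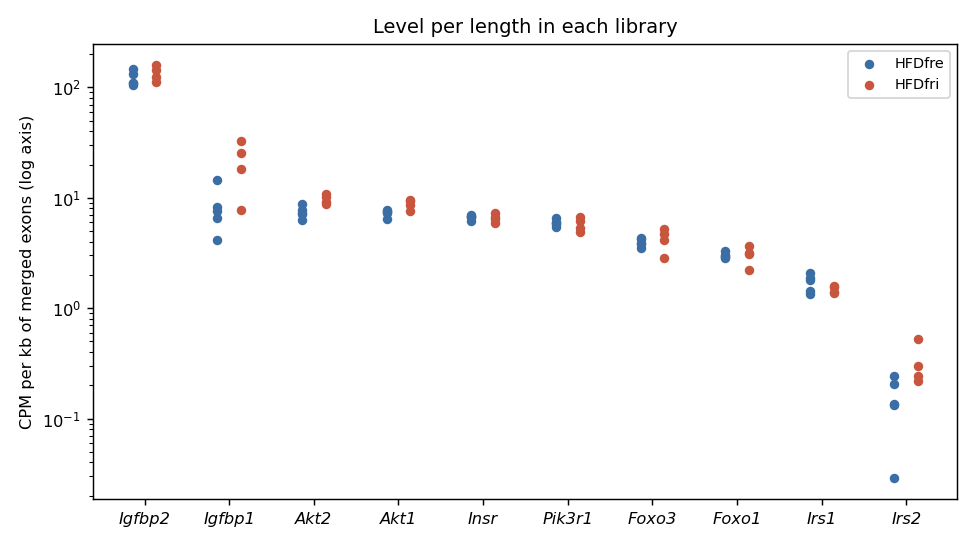
Level of each gene per length (CPM per kilobase of merged exons, logarithmic axis) in the 9 libraries, ordered by mean, with HFDfre in blue and HFDfri in red. Igfbp2 stands at 106 to 161 in every library, and Irs2 at 0.0288 to 0.530.

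Members were next compared with each other over the 9 livers as log2 CPM, in 6 pairs. Akt1 and Akt2 went together, with a Pearson r of 0.88 (exact permutation p = 0.00187, adjusted 0.0112) and a Spearman rho of 0.80 (exact permutation p = 0.0138, adjusted 0.0830). Both genes had higher means in HFDfri, so the pooled r includes the difference between the diets. Without the 2 libraries farthest from the median of Akt1 r was 0.72. After removal of the group means it was 0.71 (exact permutation p = 0.0317 unadjusted), which missed the threshold after adjustment. Foxo1 and Igfbp1 had an r of 0.52 (exact permutation p = 0.151, adjusted 0.424) and a rho of 0.70 (exact permutation p = 0.0433, adjusted 0.130), with an r of 0.73 without the 2 libraries farthest from the median of Foxo1 and of 0.71 after removal of the group means. Irs2 and Igfbp1, which both have higher means in HFDfri, had an r of 0.46 (exact permutation p = 0.212, adjusted 0.424), which was 0.20 without the 2 libraries farthest from the median of Irs2 and 0.08 once the group means were removed. Their highest library was the same, HFDfri 3, but their lowest were HFDfre 5 for Irs2 and HFDfre 1 for Igfbp1. For Igfbp1 and Igfbp2 (r = 0.34), Irs1 and Irs2 (r = -0.26) and Insr and Irs2 (r = -0.18) the adjusted exact permutation p was 0.536 or more.

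The libraries differed in makeup in a way that moved with some members. They held 58614917 to 69353439 counts each, so that 1 count was worth between 0.0136 and 0.0193 CPM. The mitochondrial share ran from 11.4% to 19.8% in the HFDfre and from 8.93% to 13.6% in the HFDfri livers, a difference of the means with an exact permutation p of 0.0397. The ribosomal RNA-like locus Gm26924 took 0.466% to 11.1% (exact permutation p = 0.214 between the groups). Markers of hepatocytes summed to 86750 to 93280 CPM in HFDfre and 76620 to 103200 CPM in HFDfri, with 0 of 8 past the adjusted threshold (edgeR, 3 higher and 1 lower at an unadjusted p under 0.05). Alb, at 52055 to 75721 CPM over the libraries, was the largest part of each sum, so the sums describe mainly that gene. Kupffer cell markers summed to 63.4 to 139 and 73.3 to 97.2 CPM, stellate cell markers to 120.5 to 186 and 100.7 to 173 CPM, and endothelial markers to 74.0 to 88.2 and 61.3 to 98.6 CPM, again with 0 past the threshold. Clec4f was the largest part of the Kupffer cell sums and Dcn of the stellate cell sums. At an unadjusted p under 0.05, 2 of the 8 stellate cell markers were lower in HFDfri, and 0 Kupffer cell or endothelial markers differed. Cholangiocyte markers summed to 25.7 to 46.8 and 24.2 to 47.2 CPM, with 1 of 6 higher at an unadjusted p under 0.05. Of the 5 erythroid markers, Alas2 passed and was higher in HFDfri, whereas the 4 globin genes had lower log2 fold changes and did not pass, and the list summed to 447 to 614 and 273 to 889 CPM. All 5 tested lymphocyte markers were lower (median of their log2 fold changes -1.0), their sums being 1.43 to 3.07 and 0.706 to 1.55 CPM, and 0 of them had an unadjusted p under 0.05. Adipocyte markers Adipoq and Plin1 had no count in any library, nor had 5 of the 6 pancreas markers. The remaining tested marker of each list did differ at an unadjusted p, Cfd being lower with a log2 fold change of -1.16 (adjusted p = 0.166, edgeR) and Cela1 higher with 0.53 (adjusted p = 0.131, edgeR). The part of cell makeup in the members' values was not tested. In bulk liver, fewer cells of a type and less RNA per cell cannot be told apart.

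Akt2 followed the mitochondrial share inversely, with a Pearson r of -0.96 over the 9 libraries (exact permutation p = 3.03e-05, adjusted over the 10 members 0.000303) and a Spearman rho of -0.98 (adjusted exact permutation p = 0.000496). Without the 2 libraries farthest from the median share r was -0.93, and after removal of the group means it was -0.94. Of 14183 tested genes outside the mitochondrial genome, 0.0776% had an r as far from 0, and the median size of r was 0.405. For Igfbp1 r was -0.82 (exact permutation p = 0.00704, adjusted 0.0351) and rho -0.83 (adjusted exact permutation p = 0.0413), with -0.99 without the 2 farthest libraries and -0.66 after removal of the group means. Here 5.53% of genes were as far from 0. Akt1 had an r of -0.79 (exact permutation p = 0.0105, adjusted 0.0351) and a rho of -0.73 (adjusted exact permutation p = 0.104), and its r was -0.48 without the 2 farthest libraries, and for the other 7 members the adjusted exact permutation p was 0.333 or more for r and 0.161 or more for rho. The share and the levels come from the same libraries.

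**Figure D4:**
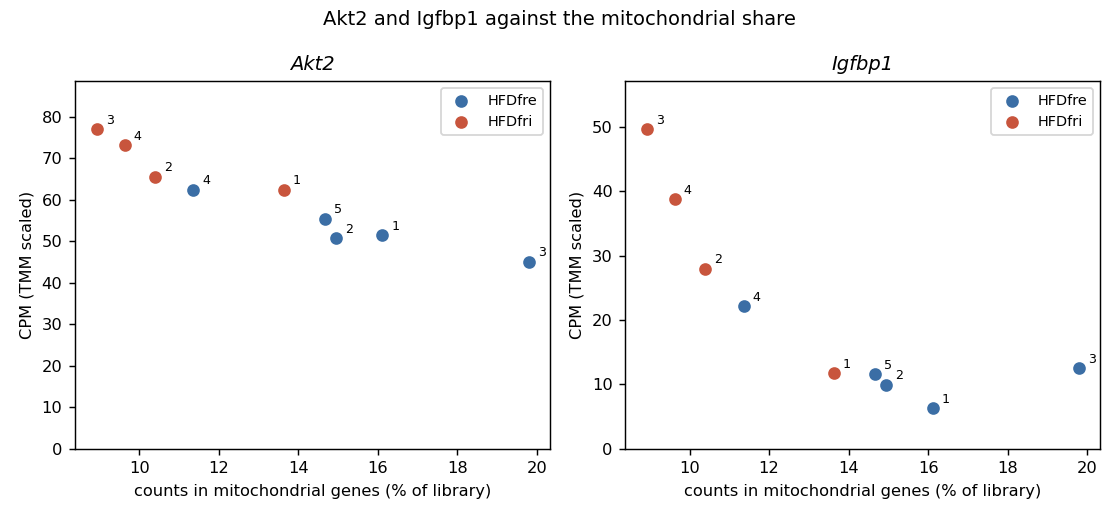
CPM of Akt2 (left) and Igfbp1 (right) against the percentage of counts in mitochondrial genes in each library, numbered by replicate, with HFDfre in blue and HFDfri in red. Akt2 runs from 77.1 CPM in HFDfri 3, at a share of 8.93%, to 45.1 CPM in HFDfre 3, at 19.8%.

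With the mitochondrial share as a covariate, a fit chosen after the data were seen, the log2 fold change of Akt2 was 0.13 ± 0.10 (SE, adjusted p = 0.729, edgeR) and that of Igfbp1 0.51 ± 0.48 (SE, adjusted p = 0.775, edgeR). Akt1 was at 0.14 ± 0.13 and Irs2 at 0.91 ± 0.76 (SE) in that fit. It called 0.0352% of all tested genes, against 1.05% without the covariate. Diet and mitochondrial share differ between the same livers, and their parts in the values of Akt2 and Igfbp1 cannot be told apart. The share of Gm26924 gave an adjusted exact permutation p of 0.989 for the pooled r of each of the 10 genes. After removal of the group means, however, its r was 0.86 with Igfbp2, 0.73 with Irs2 and 0.63 with Akt1. With that share as a covariate the log2 fold change was 0.33 ± 0.11 for Igfbp2 (SE, unadjusted p = 0.0104, adjusted p = 0.142, edgeR) and 1.73 ± 0.43 for Irs2 (SE, adjusted p = 0.0921, edgeR), above the 0.16 and 1.13 without it.

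The rest of the pathway was described from 8 further lists with 98 genes, 96 of them tested. Among these, 22 had an unadjusted p under 0.05, 15 higher and 7 lower in HFDfri, which is 22.9% against the 21.2% of all tested genes, and their median log2 fold change was 0.00. Acly alone passed the adjusted threshold with edgeR, as with limma-voom, and 1 of 96 is about the 1.05% called among all tested genes. DESeq2 called 6, namely Acly, Acaca, Fasn and Grb10, which had higher means in HFDfri, and Foxa2 and Trib3, which had lower ones, but 6 of 96 is no more than the 7.26% that DESeq2 called among all genes. Acly encodes ATP citrate lyase, which makes cytosolic acetyl-CoA for lipid synthesis and is induced by insulin.

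Acly (chromosome 11, 100476353 to 100528000, minus strand) was at 59.05, 61.05, 52.9, 63.6 and 71.8 CPM in HFDfre 1 to 5 and at 89.8, 112, 120.0 and 74.2 CPM in HFDfri 1 to 4. Every HFDfri liver was above every HFDfre liver, with HFDfri 4 closest. It rose by a log2 fold change of 0.68 ± 0.14 (SE, adjusted p = 0.0462, edgeR), and the call was lost without any 1 of the HFDfre livers, without HFDfri 2 or without HFDfri 3. The log2 fold change stayed between 0.58 and 0.80 when any 1 library was left out. With all libraries 150 genes were called, and without 1 HFDfre liver 6 to 51. Without HFDfri 3 the number was 10, and without HFDfri 2 it was 235. With the mitochondrial share as a covariate the log2 fold change of Acly was 0.49 (adjusted p = 0.404, edgeR). Of the 10 insulin-induced lipogenic genes, 7 were higher and 3 lower, 4 with an unadjusted p under 0.05 and all of these higher, and the median log2 fold change was 0.22. Of all tested genes, 11.4% had such a p with a higher mean in HFDfri and 9.79% with a lower one. The counts of the lists below are to be set beside these same shares. Summed, these genes ran from 3916 to 6160 CPM in HFDfre and from 2230 to 5938 CPM in HFDfri. Scd1 was the largest part of each sum, so the sums describe mainly that gene. It was at 2904 to 4739 CPM in HFDfre. In HFDfri 1, the library with the lowest sum, it was at 1137.5 CPM, against 4099 to 4675 CPM in HFDfri 2, 3 and 4.

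Next, 0 of the 11 receptors and adaptors and 0 of the 13 genes of phosphoinositide 3-kinase, PDK1 and the mTOR complexes with their regulators passed. Of these lists, 3 and 2 genes had an unadjusted p under 0.05, each higher in HFDfri, and the median log2 fold changes were 0.03 and 0.04. Ptpn11, the phosphatase SHP2 that binds docking proteins, had 30.8 ± 2.30 CPM in HFDfre and 38.0 ± 5.40 in HFDfri (adjusted p = 0.147, edgeR). The adaptor Sh2b2 had 0.856 ± 0.243 and 1.71 ± 1.004 CPM (adjusted p = 0.158, edgeR), with its highest value of 3.15 CPM in HFDfri 1. Mapkap1, a subunit of the mTOR complex that phosphorylates AKT, had 21.6 ± 2.26 and 26.03 ± 2.14 CPM (adjusted p = 0.167, edgeR), and Pdpk1, the other AKT kinase, had 14.6 ± 1.29 and 18.1 ± 3.51 CPM (adjusted p = 0.210, edgeR).

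Of the 17 negative regulators tested, 0 passed, and 3 had an unadjusted p under 0.05 with a higher mean in HFDfri and 2 with a lower one. Trib1, a pseudokinase, was at 33.7 to 36.9 CPM in HFDfre and 38.9 to 46.5 CPM in HFDfri, with no overlap (adjusted p = 0.113, edgeR). Grb10, an adaptor that inhibits the insulin receptor, was at 0.843 to 1.117 CPM in HFDfre and 1.119 to 2.51 CPM in HFDfri, the groups being all but in contact (adjusted p = 0.117, edgeR).

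Downstream, 0 of the 10 tested genes of the FOXO family and its partners and 0 of the 18 FOXO1 target genes passed with edgeR. At an unadjusted p under 0.05, 1 of the former was lower, and of the latter 1 was higher and 1 lower. The median log2 fold change was -0.03 in the former list and -0.06 in the latter. Foxa2, a forkhead factor that AKT also phosphorylates, had 25.05 ± 3.36 CPM in HFDfre and 16.1 ± 4.27 in HFDfri (SD), a log2 fold change of -0.64 ± 0.17 (SE, adjusted p = 0.0854, edgeR). The coactivator gene Ppargc1a had 5.59 ± 0.731 and 4.23 ± 1.75 CPM (adjusted p = 0.351, edgeR). Among the targets, Apoc3, an apolipoprotein gene induced by FOXO1, had 2507 ± 410.1 and 1814 ± 412 CPM (adjusted p = 0.151, edgeR), and the autophagy gene Map1lc3b had 113 ± 12.9 and 135 ± 17.6 CPM (adjusted p = 0.222, edgeR). The mean of Apoc3 was thus lower and that of Map1lc3b higher in HFDfri. The gluconeogenic target Pck1 was at 567 ± 58.8 and 590.4 ± 183 CPM per kilobase, a difference within the spread between livers. G6pc, in the same list, was at 84.5, 59.8, 106, 225 and 149 CPM in HFDfre 1 to 5. In HFDfri 1 to 4 it was at 165, 139, 250 and 183 CPM, so the groups overlapped although the HFDfri values lay mostly higher.

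Of the 8 genes of GSK3 and glycogen, 1 had an unadjusted p under 0.05 in each direction. Pygl, liver glycogen phosphorylase, had 249 ± 24.6 and 301 ± 32.4 CPM (adjusted p = 0.171, edgeR), and Gsk3b, a kinase that AKT inhibits, had 24.2 ± 1.95 and 20.8 ± 1.85 CPM (adjusted p = 0.231, edgeR) with no overlap between the groups. In the list of the IGF axis, 0 of 10 passed with edgeR, and at an unadjusted p under 0.05, 1 was higher and 2 were lower. Igfbp3, the main carrier of IGF-1 in blood, had 12.8 ± 2.60 and 9.28 ± 1.55 CPM (adjusted p = 0.153, edgeR), and Igfbp7 was at 29.9 to 49.9 and 25.7 to 36.5 CPM (adjusted p = 0.147, edgeR). The means of both were thus lower in HFDfri, where that of Igfbp1 was higher.

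**Figure D5:**
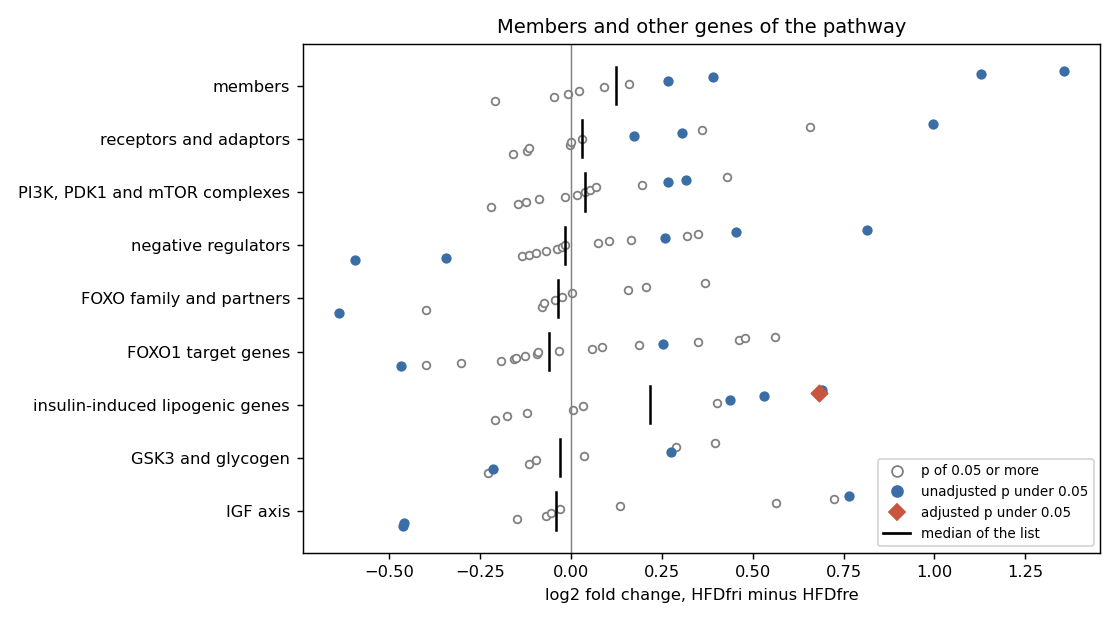
Log2 fold change (HFDfri minus HFDfre, horizontal axis) of each tested gene in the 10 members and the 8 further lists, 1 row per list, with vertical bars for list medians. Filled blue points have an unadjusted p under 0.05, open points do not, and the red diamond marks Acly, which passed the adjusted threshold. The median is 0.13 for the members and 0.22 for the lipogenic genes.

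The genes whose log2 CPM ran most like that of Irs2, Igfbp1 and Insr over the 9 libraries were looked up among 7079 genes of moderate or high level. For Igfbp1 these were Nfs1 (r = 0.982), 4833439L19Rik (r = 0.977) and Manba (r = 0.972), for Irs2 Zfp646 (r = 0.955), Zscan29 (r = 0.954) and Opa1 (r = 0.925), and for Insr Adh7 (r = 0.947), Paxbp1 (r = 0.932) and Hnrnph1 (r = 0.917). The median r of all genes searched was 0.097 for Igfbp1, 0.064 for Irs2 and -0.007 for Insr. They are the top of a long search over points that share library and depth, and are given as a description.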

How the data were processed

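RNA-seq of liver was taken as 9 libraries, 5 HFDfre and 4 HFDfri. The values the authors deposited are estimated counts per gene, whole numbers not scaled between libraries. The submitters' processing notes name HISAT2, StringTie and mm10. The library kit is NEBNext Ultra in the labels whereas the methods of the study name KAPA RNA HyperPrep. Neither the annotation nor strand handling is given in the sources used here. Low values pile up at multiples of 4 (3990 gene and library pairs at the value 4, against 2172 at 3 and 1840 at 5), so a count model treats counting error only approximately. Without strand, reads of genes that overlap on opposite strands cannot be told apart. This touches Insr (Vmn2r-ps88, Gm16180), Irs1 (Gm9747), Irs2 (9530052E02Rik) and Foxo1 (Gm20402). Overlaps on the same strand, which strand would not separate, touch Pik3r1 (Gm36638), Akt1 (Mir6939), Foxo1 (Gm38034) and Acly (Mir7116).

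Counts were rounded, which left them unchanged. Genes were kept with filterByExpr by group, 14220 of 19775 with a count, and compared by edgeR 4.0.16's quasi-likelihood method (R 4.3.3, TMM, no covariate, HFDfri minus HFDfre) and Benjamini-Hochberg adjustment over all tested genes. CPM are TMM-scaled, log2 CPM used a prior count of 2, and ratios a pseudocount of 0.5. Exact permutation tests were two-sided, over the 126 ways to divide the 9 libraries into 5 and 4 (smallest p 0.00794) or all pairings of 9 values (scipy 1.17.1). P-values measure the spread between these libraries only. Coordinates and exon lengths are from GENCODE M21 (GRCm38), promoters from RefSeq (GRCm38.p6), whose start for Irs2 lies upstream of the GENCODE one. The macrophage marker Adgre1 is listed under its older symbol Emr1. Pairs of libraries within a group differed by far more than counting error, so none was taken as a duplicate.

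The members and all gene lists were chosen with earlier results of these data known, and 1 gene of these lists is not reported here. The 10 members were described in full. Of each further list, the genes past the threshold or else the 2 with the smallest p were named, and Pck1, G6pc, Scd1, Igf1r, Alas2, Cfd, Cela1 and the genes called by DESeq2 were added after their values were seen. Genes most like a member needed a mean log2 CPM of at least 3. The other fits were DESeq2 1.42.0, which the study used, limma-voom (limma 3.58.1), other scalings and filters, counts divided by 4, covariates, a replicate block, and fits without single libraries. The fits with the mitochondrial share, and without HFDfre 1 and HFDfri 1 together, were added after the data were seen. The scripts were tested on simulated data.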

Additional observations from a re-analysis of the deposited data

Results flagged for a closer look

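Among 66 sets of values of 1 group searched for a library far from the rest, 3 cases were found, where chance gives about 1 in 20, or 3.3. In HFDfri the Foxo1 to Foxo3 log2 ratio was -0.54 in HFDfri 3 and between -0.17 and -0.15 in the other 3 livers, a gap of 0.937 of the whole range. The log2 CPM of Grb10 was -0.20 for HFDfre 4 but lay from 0.13 to 0.20 for the rest of that group, a gap of 0.826 of the range. For Igfbp7 it was 5.19 in liver 4 of HFDfri, with its group mates at 4.69 to 4.77, a gap of 0.830 of the range.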

How the results depend on the processing

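The sign of Irs1, Irs2, Akt1, Akt2, Igfbp1 and Igfbp2 held in all 22 other fits. The count of members past the threshold was 2 with DESeq2, 1 without HFDfre 1 and HFDfri 1 together, 0 to 2 when each library was left out in turn (2 without HFDfri 1), and 0 otherwise. That of the other pathway genes was 6 with DESeq2, 0 to 7 when each library was left out, and 0 with library totals, without a filter, with the Gm26924 share as a covariate, within libraries under 3% of Gm26924, with the mitochondrial share as a covariate, and without HFDfre 1 and HFDfri 1 together.

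Signs near 0 turned. The log2 fold change of Insr was 0.0447 with library totals, 0.00274 without Gm26924 and mitochondrial genes, 0.0974 with the mitochondrial covariate, and -0.0750 to 0.0380 with libraries left out. Pik3r1 was at 0.0212 with library totals, 0.0219 without HFDfre 1 and HFDfri 1, and -0.127 to 0.0146 with libraries left out. Foxo1 was at -0.185 with the mitochondrial covariate and -0.0812 to 0.133 with libraries left out. Foxo3 was at -0.00672 under 3% of Gm26924, -0.0781 with the mitochondrial covariate, and -0.0282 to 0.226 with libraries left out. The Foxo1 to Foxo3 ratio differed by 0.0208 under 3% of Gm26924 and by -0.108 to 0.0390 with libraries left out. The Insr to Igf1r ratio, -0.35 in all libraries (exact permutation p = 0.849), was 0.00489 with a pseudocount of 5, 0.809 under 3% of Gm26924, and -0.756 to 0.534 with libraries left out, where leaving out HFDfre 1, which had 0 counts of Igf1r, gave the 0.534. With a pseudocount of 0 that ratio has no value. The causes of these turns were not tested.

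Of the pairs, Akt1 and Akt2 missed the threshold after adjustment on deviations from the group means (0.711) and without the 2 farthest libraries (0.718), and ran from 0.817 to 0.937 with libraries left out. The r of Irs1 and Irs2 was 0.017 on deviations, that of Igfbp1 and Igfbp2 -0.468 without the 2 farthest libraries and -0.00986 to 0.726 with libraries left out, and that of Insr and Irs2 -0.293 to 0.104.

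Same-numbered libraries of the groups did not deviate together in all pairs (r = 0.122, 0.17, -0.249 and 0.119), so the numbers were not taken to pair the livers. With a replicate block, in which HFDfre 5 has no partner, 0 members and 0 other pathway genes passed, and Insr was at 0.00365. All genes past the threshold numbered 150 in the fit of all libraries, 1033 with DESeq2, 76 with library totals, 0 with the block, and 6 to 1106 with libraries left out.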
